A study of Mus musculus with 2 samples.

Results

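The 4 genes described here, Pold1, Pold2, Pold3 and Pold4, encode the subunits of DNA polymerase delta and were picked by symbol from the 32285 genes counted in both libraries. Pold2 had been chosen because its level differed between the libraries as a whole and in erythroid cells, so those values are descriptions; its 3 partners were chosen for belonging to the same enzyme. Fetal liver cells sorted as Lineage- c-Kit+, a gate for blood stem and progenitor cells, were taken from C57BL/6 mouse embryos at stage E14.5. One library came from CD45.2(+) Vav1-iCre Brd9fl/fl embryos (knockout) and 1 from CD45.2(+) Brd9fl/fl embryos (control). Vav1-iCre is a recombinase driven in blood cells, and Brd9 encodes a bromodomain protein of a SWI/SNF-type chromatin remodeller, non-canonical BAF. Both groups carried floxed Brd9, and no library carried the recombinase without the floxed gene. The labels do not say how many embryos were pooled in either library, and with 1 library for each genotype no difference has a replicate check and none was tested.

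DNA polymerase delta copies the lagging strand at the replication fork and takes part in repair synthesis. Pold1 is its catalytic and proofreading subunit, Pold2 is the second core subunit that joins Pold1 to the rest, Pold3 links the enzyme to the sliding clamp PCNA, and Pold4 is a small accessory subunit. Pold2 and Pold3 proteins also serve in DNA polymerase zeta, which copies damaged DNA. Fetal liver progenitors divide fast, so replication genes are expected in most of them.

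The promoter windows of the 4 genes are printed because a reader comparing Pold2 with its partners will want to see where their start sites differ. They are RefSeq sequence of build GRCm38.p6, 300 bases each, 5′ to 3′ on the gene's own strand, from 250 bases before to 50 bases after an annotated start. All 4 members matched. Pold2 has a second RefSeq window, chr11:5877614-5877913, which is not printed; the windows printed are the first of each gene. Capitals mark a CCAAT match (CCAAT or its complement ATTGG) or an E2F match (TTTCCCGC or TTTGGCGC, either strand).
Pold1, chr7:44548766-44549065, minus strand: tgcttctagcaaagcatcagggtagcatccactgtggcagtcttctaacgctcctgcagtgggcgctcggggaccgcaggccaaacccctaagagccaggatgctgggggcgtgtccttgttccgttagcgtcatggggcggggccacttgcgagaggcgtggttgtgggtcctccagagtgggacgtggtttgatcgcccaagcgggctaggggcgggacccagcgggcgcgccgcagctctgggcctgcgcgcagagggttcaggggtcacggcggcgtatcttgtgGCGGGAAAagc
Pold2, chr11:5878207-5878506, minus strand: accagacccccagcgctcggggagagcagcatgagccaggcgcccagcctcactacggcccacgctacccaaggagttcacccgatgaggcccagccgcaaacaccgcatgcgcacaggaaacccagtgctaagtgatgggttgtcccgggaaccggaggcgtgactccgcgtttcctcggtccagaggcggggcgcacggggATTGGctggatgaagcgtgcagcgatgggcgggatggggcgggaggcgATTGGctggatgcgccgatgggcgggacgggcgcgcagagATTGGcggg
Pold3, chr7:100121453-100121752, minus strand: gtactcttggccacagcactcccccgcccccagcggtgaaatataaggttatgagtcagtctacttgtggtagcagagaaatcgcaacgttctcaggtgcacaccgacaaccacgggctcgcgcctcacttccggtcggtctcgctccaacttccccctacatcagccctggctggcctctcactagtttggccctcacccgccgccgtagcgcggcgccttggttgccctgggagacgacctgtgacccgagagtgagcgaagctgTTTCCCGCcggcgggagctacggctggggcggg
Pold4, chr19:4231643-4231942, plus strand: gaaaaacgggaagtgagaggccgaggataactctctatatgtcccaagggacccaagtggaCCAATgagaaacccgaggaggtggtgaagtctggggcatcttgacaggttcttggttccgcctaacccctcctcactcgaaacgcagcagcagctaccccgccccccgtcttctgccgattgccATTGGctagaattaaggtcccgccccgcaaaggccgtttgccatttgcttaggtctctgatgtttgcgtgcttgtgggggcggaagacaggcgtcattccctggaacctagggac
The first Pold2 window held 3 CCAAT matches, all on the opposite strand, within a stretch from 47 bases before to just past 41 bases after the start. The Pold4 window held 2 CCAAT matches, and the Pold1 and Pold3 windows held 0. The Pold1 and Pold3 windows each held 1 E2F match, and the Pold2 and Pold4 windows held 0. The second Pold2 window, with 40.7% G and C bases against 68.3% in the first, held 0 CCAAT, E2F and GC box matches and 1 TATA box (TATAAA, either strand). Over 32851 promoter windows of the same length, 37.4% held at least 1 CCAAT match, 3.37% held 3 or more and 1.56% held an E2F match. GC boxes (GGGCGG, either strand) were present in all 4 printed windows, with 2 or 3 matches each, against 35.7% of all windows; a TATA box was present in 13.6%. These matches are letters in a window and say nothing of which factor binds. Pold2 lies on chr11:5872180-5878292 (minus strand), Pold1 on chr7:44532746-44548849 (minus), Pold3 on chr7:100082111-100121565 (minus) and Pold4 on chr19:4231899-4233634 (plus). On the same strand as Pold4, 1399 of its bases also belong to another annotated gene, AC109138.7, so its reads could not be told apart there.

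The targeted gene was counted first. Brd9 had 7.06 knockout and 27.2 control UMIs per 1000000 UMIs, a log2 ratio of -1.95 (95% interval -2.02 to -1.87). The sequenced 3′ ends may lie outside the floxed exons, so this only checks the labels. The cells kept numbered 6755 for the knockout and 6856 for the control, at median depths of 36007 and 38488 UMIs (unique molecular identifiers, one for each captured transcript). The libraries shared 16 cell barcodes. Cells were called female or male from Xist and 4 Y-linked genes: 59.0% of knockout cells and 23.0% of control cells were female, and 95.6% and 96.5% of the male cells had a Y-linked UMI. Within a library, female and male cells come from different embryos. Alb, made by hepatocytes and not by blood cells, was seen in 1.84% of knockout and 2.46% of control cells.

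Pold2 was higher in the knockout library and its partners were at like levels in both. Levels are given as UMIs of a gene per 1000000 UMIs of the group (CPM), summed over its cells. The 95% intervals are exact Poisson intervals for a level, conditional exact intervals for a ratio and Clopper-Pearson intervals for a share of cells, and all cover counting error only, not differences between embryos. The knockout library had 81.1 CPM of Pold2 (80.0 to 82.3) and the control 46.1 CPM (45.3 to 46.9), a 1.76-fold difference and a log2 ratio of 0.82 (0.78 to 0.85). Pold1 stood at 50.03 against 47.3 CPM, a log2 ratio of 0.08 (0.05 to 0.12). Pold3 stood at 96.2 against 91.7 CPM, a log2 ratio of 0.07 (0.04 to 0.09). For Pold4 the levels were 18.7 and 18.3 CPM, and the log2 ratio was 0.03 (-0.03 to 0.09).

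The partner intervals lay near 0, those of Pold1 and Pold3 just above it. Among 6226 genes at 20 CPM or more in either library the median log2 ratio was 0.03, and 65.3% of them were above 0. A log2 ratio above 0.5 was found in 0.418% of those genes and in 1 of the 3 members that reached 20 CPM; Pold4 did not reach it. Pold2 ranked 7 of 6226 from the top, Pold1 1468 and Pold3 1780. Pold2 was picked on this ratio, so nothing is read from its rank.

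**Figure D1:**
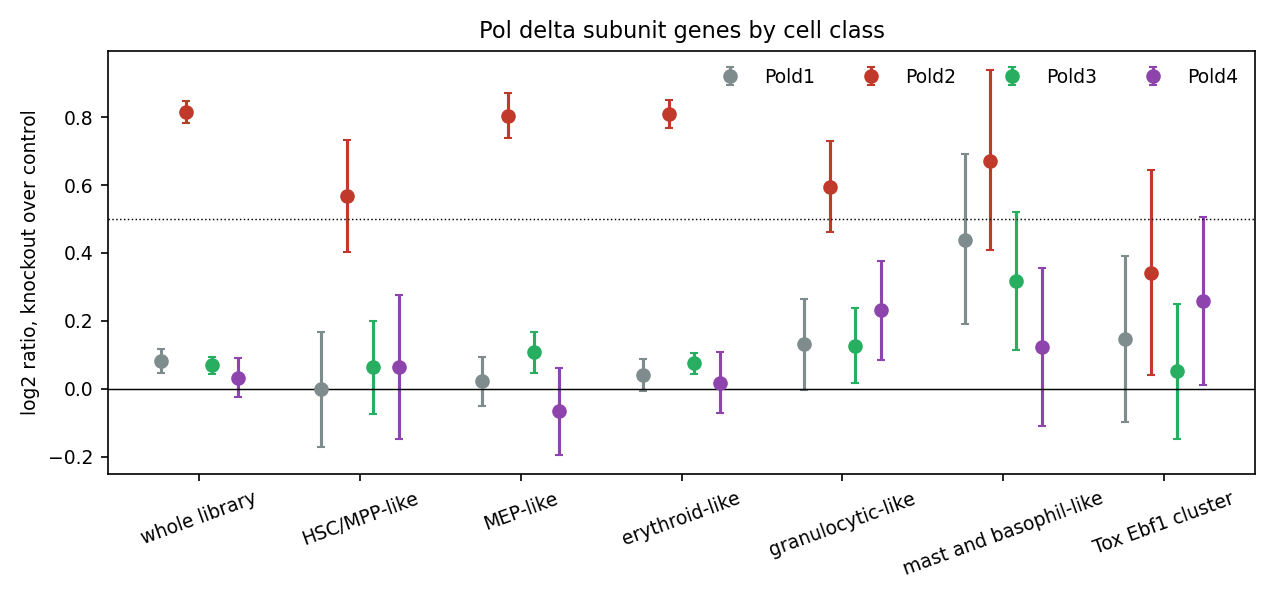
Log2 ratio of knockout over control (vertical axis) for each polymerase delta gene in the whole library and in 6 cell classes; bars are 95% counting intervals, the dotted line marks 0.5. Pold2 lies above 0.5 in every column but the Tox Ebf1 cluster, while Pold1, Pold3 and Pold4 lie below 0.5 in all of them.

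The next question was whether the Pold2 difference was found in each progenitor type. Clusters were named from marker lists without using the 4 members, and a class was used where each library had at least 150 cells. Erythroid-like cells were the largest class, with 3671 knockout and 4154 control cells. Their Pold2 level was 79.2 CPM (77.7 to 80.6) for the knockout and 45.18 CPM (44.2 to 46.2) for the control, a log2 ratio of 0.81 (0.77 to 0.85). The erythroid-like ratios of Pold1, Pold3 and Pold4 were 0.04, 0.08 and 0.02. Of its 14 clusters, 10 were named from the overall level of erythroid markers, 8 of them with 0 such markers among their 30 leading genes. The class includes clusters made up mostly of 1 library: 720 knockout against 32 control cells in one, 238 against 12 in another, and 46 against 521 in the last. In these 3 clusters the Pold2 log2 ratio was 0.65, 0.51 and 0.69, with a wide interval of 0.06 to 1.01 in the one with 12 control cells.

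In cells like megakaryocyte-erythroid progenitors (MEP-like), the bipotent stage before red cells and platelets, Pold2 was at 97.9 CPM (95.6 to 100.3) in 1703 knockout cells and 56.1 CPM (53.9 to 58.3) in 1097 control cells. That log2 ratio was 0.80 (0.74 to 0.87), with 0.02 for Pold1, 0.11 for Pold3 and -0.07 for Pold4. Of the 4 clusters in this class, 2 were named from the overall level of MEP markers and not from their leading genes. Cells like stem and multipotent progenitors (HSC/MPP-like) had Pold2 at 67.4 CPM (62.5 to 72.7) in 419 knockout cells and 45.5 CPM (41.7 to 49.5) in 448 control cells. Their ratio was 0.57 (0.40 to 0.73), against -0.0015 for Pold1, 0.06 for Pold3 and 0.06 for Pold4.

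Granulocytic-like cells, 431 knockout and 718 control, had Pold2 at 62.5 CPM (58.4 to 66.9) and 41.4 CPM (38.8 to 44.0). The ratio was 0.60 (0.46 to 0.73) for Pold2, 0.13 for Pold1, 0.13 for Pold3 and 0.23 (0.08 to 0.38) for Pold4. In mast and basophil-like cells, 275 and 177 in number, Pold2 was at 53.6 CPM (48.3 to 59.3) and 33.7 CPM (28.9 to 39.1), a ratio of 0.67 (0.41 to 0.94). Among the 6 classes Pold1 and Pold3 stood farthest from 0 in this one: Pold1 was at 53.8 and 39.7 CPM, a ratio of 0.44 (0.19 to 0.69), and Pold3 at 76.4 and 61.3 CPM, a ratio of 0.32 (0.11 to 0.52). The intervals of Pold1 and Pold2 overlapped there.

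A cluster led by Tox and Ebf1, 175 knockout and 199 control cells, is called by those genes. Its 10 leading genes held 2 lymphoid markers and 1 monocyte and dendritic marker, Ly86. Its 30 leading genes held 4 markers of the list matched best, the monocyte and dendritic one. Pold2 was at 40.3 CPM (34.7 to 46.6) in its knockout cells and 31.8 CPM (27.4 to 36.7) in its control cells, a ratio of 0.34 (0.04 to 0.64). Pold4 in this cluster had a ratio of 0.26 (0.01 to 0.51), Pold1 0.15 and Pold3 0.05, all 3 within the Pold2 interval. Megakaryocyte-like cells, with 81 and 63 cells, fell below the 150 set for a class; their Pold2 ratio was 0.66 (0.25 to 1.07).

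The share of all genes above 0.5 was lower in the 2 largest classes than in the other 4. It was 0.382% in erythroid-like cells and 0.556% in MEP-like cells, where 1 of 3 members at 20 CPM was above 0.5 and Pold4 was under that level in both. It was 1.09% in HSC/MPP-like, 0.922% in granulocytic-like and 2.31% in mast and basophil-like cells, with 1 of 4 members above 0.5 in each. In the Tox Ebf1 cluster it was 2.15%, and 0 of 4 members were above 0.5. Wherever a member was above 0.5 it was Pold2, a description, since the classes are parts of the library sum on which it was picked.

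Finer groups gave a like picture. Of the 24 clusters, 21 had at least 50 cells from each library, and Pold2 was higher in the knockout in all 21 of them. Its log2 ratio ran from 0.34 to 0.92 with a median of 0.80, and it was above 0.5 in 20. Pold1 was higher in 13 of the 21, Pold3 in 19 and Pold4 in 14, and none of the 3 was above 0.5 in any. Across the same clusters the partner medians were 0.03, 0.07 and 0.06. These clusters hold cells of the same 2 libraries and are not replicates. Their counts are parts of the library and erythroid sums on which Pold2 was picked, while its partners were not picked on their level. The cluster counts of Pold2 are therefore descriptions.

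With rising globin content, a measure of red cell maturation, Pold2 was lower and Pold3 higher in both libraries. Erythroid-like cells of both libraries were ranked together by their share of alpha-globin UMIs and cut into 3 bins of equal size, a split added after the class values were known. From the lowest to the highest bin, knockout Pold2 went from 89.7 through 84.5 to 62.9 CPM, and control Pold2 from 52.5 through 45.3 to 33.7 CPM. Its intervals in the lowest and highest bins did not overlap in either library. Pold3 went from 95.8 through 105 to 114 CPM among knockout cells, and from 95.3 through 100.2 to 106 CPM among control cells. Pold1 went from 47.5 to 42.7 CPM and from 47.0 to 41.2 CPM. The Pold2 ratio of the libraries was 0.77, 0.90 and 0.90 in the 3 bins.

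Cell-cycle phase was scored from lists without the members. Pold2 was at 74.6 CPM in 1175 knockout and 46.9 CPM in 1296 control cells called S, a ratio of 0.67 (0.58 to 0.75). In 5422 and 5338 cells called G2M it was at 82.7 and 46.3 CPM, a ratio of 0.84 (0.80 to 0.87). Few cells were called G1, 158 and 222, with Pold2 at 35.6 and 27.1 CPM and a ratio of 0.39 (-0.03 to 0.81), or 0.74 with phases called by the rank of scores. The 3 partners lay between -0.17 and 0.20 in all 3 phases. With the sexes apart, the Pold2 ratio in S was 0.10 (-0.03 to 0.23) in female and 0.95 (0.83 to 1.07) in male cells. In G2M it was 0.26 (0.20 to 0.31) and 1.07 (1.02 to 1.12). In G1 it was -0.10 (-0.79 to 0.62) and 0.46 (-0.17 to 1.06). The low level of Pold1, Pold2 and Pold3 in cells called G1 was seen in both libraries: Pold1 was at 28.8 and 32.3 CPM and Pold3 at 55.9 and 60.9 CPM. Pold4 was highest in cells called G1, at 55.5 and 48.4 CPM, against 23.3 and 22.1 CPM in S and 17.5 and 17.05 CPM in G2M. Cells called G1 were shallow, with median depths of 14723 and 17614 UMIs, against 38164.5 and 40626 in G2M. Pold4 also differed by class, with 12.2 and 12.1 CPM in erythroid-like and 54.3 and 49.9 CPM in mast and basophil-like cells. The class mix of the phases was not compared, so phase was not separated from class or depth.

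Split by cell sex, Pold2 was lowest in the male cells of the control library. Pold2 was at 80.9 CPM (79.5 to 82.4) in knockout female cells, 80.5 CPM (78.7 to 82.3) in knockout male cells, 68.6 CPM (66.5 to 70.7) in control female cells and 38.8 CPM (38.0 to 39.7) in control male cells. The 2 knockout values overlapped, control female cells lay somewhat below them, and control male cells lay far below all 3. Knockout over control, the log2 ratio was 1.05 (1.01 to 1.10) in male cells and 0.24 (0.19 to 0.29) in female cells. Above 0.5 were 0.483% of genes in male cells and 0.418% in female cells. Of the 3 members at 20 CPM, 1 was above 0.5 in male cells and 0 in female cells, with Pold4 under that level. Giving female and male cells equal weight in each library, the Pold2 ratio was 0.59. Pold2 ranked 3 of 6215 genes in male cells and 210 of 6222 in female cells. These cells are parts of the library sums on which Pold2 was picked, so nothing is read from either rank.

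**Figure D2:**
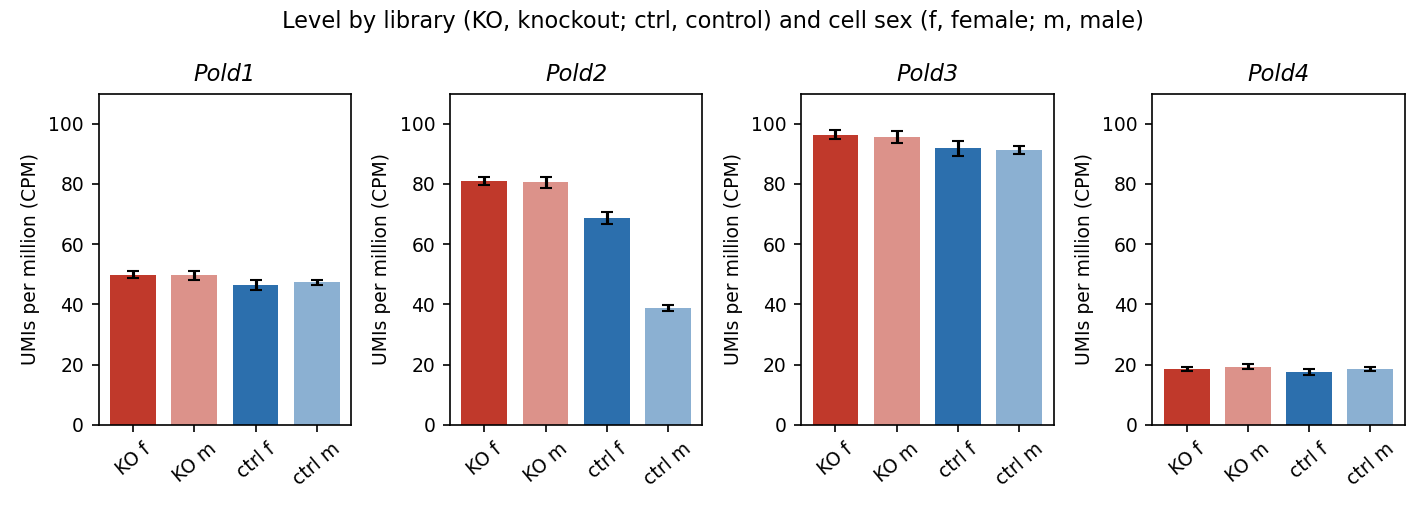
Level in CPM (vertical axis, from 0) of each gene in female and male cells of the knockout and control libraries; lines are 95% Poisson intervals. Pold2 falls to 38.8 CPM in control male cells, while each partner stays within a narrow range over the 4 groups.

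The partners showed no such split. Pold1 was at 49.8, 49.7, 46.5 and 47.3 CPM in knockout female, knockout male, control female and control male cells. Pold3 was at 96.3, 95.6, 91.8 and 91.3 CPM in the same order, and Pold4 at 18.5, 19.3, 17.5 and 18.6 CPM. Control female over control male, the log2 ratio was 0.82 (0.77 to 0.88) for Pold2, -0.02 (-0.08 to 0.04) for Pold1, 0.01 (-0.04 to 0.05) for Pold3 and -0.09 (-0.19 to 0.00) for Pold4. In the knockout library the same ratio was 0.01 (-0.03 to 0.05) for Pold2. Because female and male cells of 1 library come from different embryos, cell sex and embryo cannot be told apart in these values, and neither can the recombinase and the embryos that carried it.

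**Figure D3:**
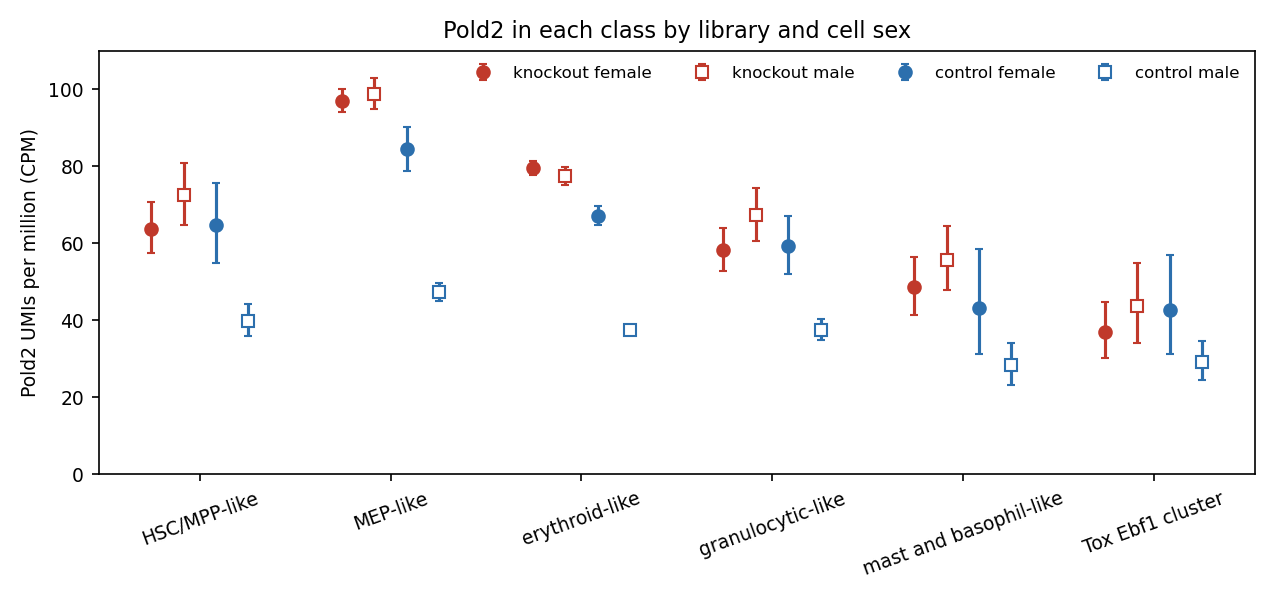
Pold2 level in CPM (vertical axis) in 6 cell classes, by library (colour) and cell sex (filled circle, female; open square, male), with 95% Poisson intervals. Control male cells are the lowest of the 4 groups in each class.

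The low value of control male cells was found in every class. In HSC/MPP-like cells Pold2 was at 63.8, 72.5, 64.8 and 39.8 CPM in knockout female, knockout male, control female and control male cells. MEP-like cells had 97.0, 98.9, 84.4 and 47.2 CPM in that order, and erythroid-like cells had 79.5, 77.6, 67.2 and 37.5 CPM. Granulocytic-like cells had 58.2, 67.2, 59.2 and 37.5 CPM. In these 4 classes the interval of control male cells lay below those of the other 3 groups. Mast and basophil-like cells had 48.6, 55.8, 43.3 and 28.3 CPM, and the Tox Ebf1 cluster had 36.9, 43.6, 42.8 and 29.3 CPM, with only 35 and 38 control female cells. There the intervals of control female and control male levels overlapped. As a log2 ratio of control female over control male, Pold2 had 0.61 (0.06 to 1.14) in mast and basophil-like cells. The same ratio was 0.55 (0.03 to 1.04) in the Tox Ebf1 cluster. In the Tox Ebf1 cluster the control male interval was 24.5 to 34.7 CPM. That interval also overlapped those of knockout female (30.2 to 44.7) and knockout male cells (34.1 to 54.9).

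Within female cells alone, the knockout over control ratio of Pold2 was -0.02 (-0.30 to 0.26) in HSC/MPP-like, 0.20 (0.09 to 0.31) in MEP-like, 0.24 (0.18 to 0.31) in erythroid-like and -0.02 (-0.25 to 0.21) in granulocytic-like cells. Mast and basophil-like female cells gave 0.17 (-0.33 to 0.69) and the Tox Ebf1 cluster -0.21 (-0.73 to 0.32). Within male cells it was 0.86, 1.07, 1.05, 0.84, 0.98 and 0.57 over the same 6 classes, and each of these intervals lay above 0. In the control library 63.9% of female and 59.5% of male cells were erythroid-like, and 7.88% and 11.3% were granulocytic-like.

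To see how far Pold2 stood from other genes in this respect, a comparison added after its values by sex were known, female cells were set against male cells within each library over all autosomal genes at 20 CPM. In the control library 1 of 5933 genes, or 0.0169%, was higher in female cells by over 0.5, and that gene was Pold2. The next was Cdk5rap1, an enzyme that modifies transfer RNA, at 0.40; in the knockout library Cdk5rap1 had a ratio of 1.47. In the knockout library 2 of 6028 genes, or 0.0332%, were above 0.5, and 0 of the members at 20 CPM were among them. The 5th and 95th percentiles of all autosomal genes were -0.12 and 0.09 in the control. Male cells made up 5178 of the 6856 control cells, so their level weighs on the library ratio by which Pold2 was picked. Nothing is therefore read from the place of Pold2 among these genes.

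**Figure D4:**
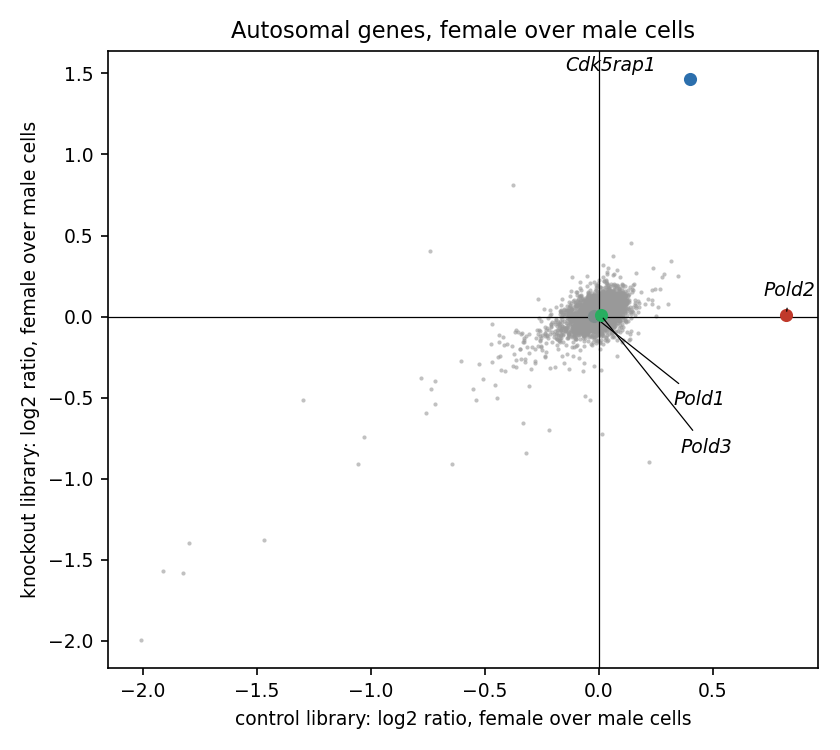
Each grey point is an autosomal gene at 20 CPM or more; the axes give its log2 ratio of female over male cells in the control (horizontal) and knockout (vertical) library. Pold2, picked on its library ratio, lies at 0.82 on the horizontal axis and 0.01 on the vertical. Pold1 and Pold3 lie at the centre and Cdk5rap1 at 0.40 and 1.47.

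The well-detected neighbours of Pold2 on chromosome 11 were at like levels in both libraries and in both sexes of the control. Of the 5 protein-coding genes on either side of Pold2, 4 were at 20 CPM or more. Dbnl, an actin-binding adaptor, was at 74.2 and 73.9 CPM in knockout and control; its control female and control male levels were 71.7 and 74.3 CPM. Nudcd3 was at 90.3 and 85.9 CPM, Ykt6, a vesicle fusion protein, at 24.6 and 23.6 CPM, and Urgcp at 22.4 and 22.4 CPM. Their control female over male ratios lay between -0.06 and 0.04. Among weakly detected neighbours, 2 were higher in the knockout: Myl7, a heart myosin light chain and the next gene upstream of Pold2, at 1.79 against 0.96 CPM (ratio 0.90, 0.68 to 1.13), and Polm, a DNA end-joining polymerase, at 4.63 against 3.51 CPM (0.40, 0.28 to 0.53). Control female over male, Myl7 had a ratio of 0.35 and Polm -0.01. The other 4 neighbours were under 1 CPM.

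The ratios of other replication genes at 20 CPM or more lay near 0. In all, 11 lists with 67 genes of the fork and of repair were taken, and 58 of them reached 20 CPM. None of the 58 lay beyond 0.5 in either direction, against 1.32% of the 6226 genes, so a count of 0 is near that background; 32 were above 0 and 26 below, from -0.14 to 0.11, with a median of 0.01 against 0.03 over all genes. In polymerase epsilon, which copies the leading strand, the catalytic Pole was at 56.4 and 56.0 CPM (ratio 0.01), and Pole2, its counterpart of Pold2, at 59.0 and 55.9 CPM (0.08). In polymerase alpha and primase, which start each new fragment, Pola1 had 0.10 and Prim1 -0.06. Rev3l, the catalytic subunit of polymerase zeta that Pold2 also serves, had 0.11. Mad2l2, another zeta subunit, was under 20 CPM, at 15.6 and 13.3 CPM, with a ratio of 0.23 (0.16 to 0.29). Among the list genes under 20 CPM the ratios ran from -0.10 to 0.40, the latter for Polm.

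The clamp loader genes Rfc1, Rfc2 and Rfc5 had ratios of 0.04, 0.04 and 0.06, and Atad5, which unloads the clamp, had -0.05. Among partners of the enzyme, Poldip2 was at 77.5 and 80.7 CPM (-0.06), Poldip3 at 39.99 and 40.2 CPM (-0.01) and the helicase Wrn at 118 and 130 CPM (-0.14). Fen1, the nuclease that trims the fragments polymerase delta displaces, was at 144 and 157 CPM (-0.12). Control female over control male, the 58 genes ranged from -0.08 to 0.11, with Pold2 at 0.82.

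The genes whose level varied most like that of Pold2 were found by Pearson correlation of log2(CPM + 1) over 22 groups of class, library and sex. The groups share libraries and depth, so the values are descriptions. The 8 highest of 6028 autosomal genes were A430005L14Rik (r = 0.84), Lyrm9 (0.83), Smg9 (0.78), Jade1 (0.77), Trmt112 (0.77), Riox1 (0.76), Hsp90ab1 (0.75) and Rabepk (0.75). Lyrm9 was at 44.9 CPM in the knockout against 32.3 CPM for the control, where its female and male cells had 33.3 and 32.1 CPM; it lacked the gap between the control sexes. The control female over male ratio of all 8 lay between -0.01 and 0.12. For the partners r was 0.47 for Pold3, 0.19 for Pold1 and -0.51 for Pold4.

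Per-cell Pold2 counts had a single peak in each library. Each cell was thinned to 18517 UMIs; 367 knockout and 314 control cells were shallower and left out. A Pold2 UMI was then found in 74.1% (73.0% to 75.2%) of 6388 knockout cells and 54.4% (53.2% to 55.6%) of 6542 control cells; without thinning the shares were 87.8% and 74.8%. No class here is expected to lack polymerase delta. The share was 73.8% in knockout female, 74.3% in knockout male, 70.1% in control female and 49.5% in control male cells. For Pold1 it was 58.8% of knockout and 56.9% of control cells, for Pold3 82.3% and 79.3%, and for Pold4 28.1% and 28.4%.

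The mean was 1.45 Pold2 UMIs per thinned knockout cell and 0.84 per control cell, with the most frequent value 1 and 0. The counts fell away on both sides of that value or from it, with 1 peak in each library among all, erythroid-like and MEP-like cells, also with the sexes apart. The variance over the mean, which is 1 for a Poisson draw, was 1.16 in the knockout and 1.13 in the control. Among knockout cells 25.9% had 0 Pold2 UMIs where a Poisson draw of the same mean gives 23.4%, and among control cells 45.6% against 43.2%. The partners were like this too, at 1.05 and 1.06 for Pold1, 1.08 and 1.12 for Pold3, and 1.28 and 1.20 for Pold4.

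**Figure D5:**
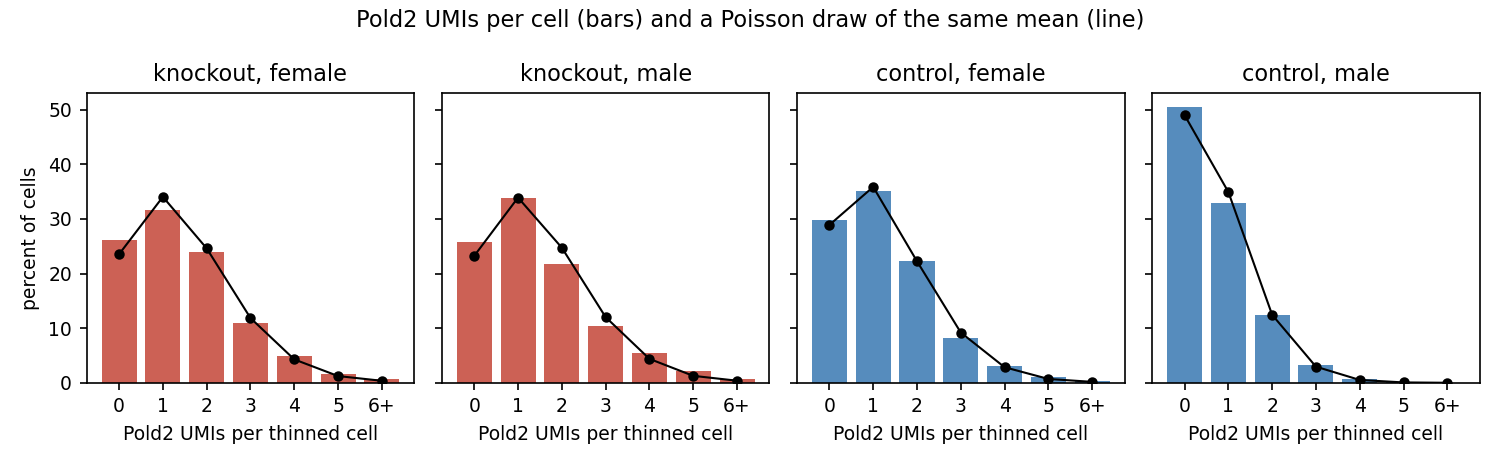
Percent of cells (vertical axis) with 0 to 6 or more Pold2 UMIs after thinning, for female and male cells of each library; the black line is a Poisson draw of the same mean. Each panel has 1 peak, at 1 UMI in 3 panels and at 0 in control male cells.

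A single peak does not show a single level at this depth. Control female and control male cells had means of 1.24 and 0.71 UMIs, and their sum still had 1 peak. For these cells a single Poisson draw gives 43.3% at 0, and 2 Poisson draws with the means of the sexes give 44.3%, where 45.6% was counted. Within control female cells the variance over the mean was 1.07 and within control male cells 1.08. At 37191 UMIs a cell, with 3084 knockout and 3723 control cells deep enough, the means were 3.22 and 1.80, and each library had 1 peak. Among knockout female cells alone a second rise appeared at 9 UMIs, where 25 cells followed 23.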

How the data were processed

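The deposited files hold raw UMI counts, whole numbers per gene and cell barcode, made by the authors; the submitters' processing notes name Cell Ranger 7.2.0 and, as build, mm10. Per the labels, libraries were 10x Genomics 3′ gene expression. No source used here states if reads in introns counted. The files hold 7289 knockout and 7399 control barcodes with 271350214 and 292972312 UMIs.

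Cells with at least 1000 genes, 2000 UMIs and at most 10% mitochondrial UMIs were kept; 244 and 240 doublets called by Scrublet (scanpy 1.11.5, expected rate 6%) and 2 and 4 cells with at least 1% hepatocyte UMIs were removed. Female cells had at least 3 Xist and at most 1 Y-linked UMI, male cells at most 1 Xist UMI; 195 and 104 cells had no call. Clustering (3000 variable genes without the members, 30 components, 15 neighbours, leidenalg 0.10.2, resolution 1) gave 24 clusters, named from marker lists. A first clustering was replaced after its cluster names and sizes were seen, when neutrophil and granulocyte-monocyte lists were also joined, before any member's level was tabulated. Counts were summed per group and divided by the group's total. Named genes were the members, up to 4 genes of each list with the largest ratio, 5 neighbours on either side of Pold2 and the 8 genes most like it. The members and lists were chosen with earlier results of these data known. Ratios, intervals and thinning were tested on simulated data. Alternatives changed the filter, doublets, scaling, clustering, sex and class mix, thinning and list settings.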

Additional observations from a re-analysis of the deposited data

Results flagged for a closer look

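In 4 groups by cell type the Pold2 ratio of knockout over control had opposite signs in female and male cells. In HSC/MPP-like cells it was -0.02 (-0.30 to 0.26) in female and 0.86 (0.64 to 1.09) in male cells, and male minus female was 0.89. In granulocytic-like cells it was -0.02 (-0.25 to 0.21) and 0.84 (0.66 to 1.02), a gap of 0.86. The Tox Ebf1 cluster had -0.21 (-0.73 to 0.32) and 0.57 (0.14 to 0.999), a gap of 0.79. The 81 knockout and 63 control megakaryocyte-like cells gave -0.02 (-0.59 to 0.58) and 1.04 (0.43 to 1.67), a gap of 1.06. Only 19 of those control cells were female. A gap was not particular to these 4 groups: in MEP-like cells the ratio was 0.20 in female and 1.07 in male cells. In erythroid-like cells it was 0.24 and 1.05, and in mast and basophil-like cells 0.17 and 0.98. The difference between the sexes was not tested, since each library is 1 sample, and the female intervals of the 4 flagged groups all include 0.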

How the results depend on the processing

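Of 220 recomputed values, 184 stayed within their counting interval, 34 moved beyond it and 2 that had been above 0.5 changed sign. Both were Pold2 ratios, in female cells alone: -0.021 in HSC/MPP-like and -0.023 in granulocytic-like cells. With female cells alone the other Pold2 class ratios that moved were 0.20 in MEP-like, 0.24 in erythroid-like and 0.17 in mast and basophil-like cells and -0.21 in the Tox Ebf1 cluster. With male cells alone they were 0.86 in HSC/MPP-like, 1.07 in MEP-like, 1.05 in erythroid-like, 0.84 in granulocytic-like and 0.98 in mast and basophil-like cells. The whole-library Pold2 ratio was 0.77 with a median-of-ratios size factor, 0.78 with the knockout class mix set to that of the control, and 0.59 with the sexes at equal weight. With that size factor Pold1 had 0.036 and Pold3 0.024. Pold4 moved to 0.090 without clusters of under 50 cells in either library, an alternative chosen after seeing the data. With doublets kept the granulocytic-like Pold2 ratio was 0.74. With phases called by the rank of scores the S-phase Pold2 ratio was 0.79 and the G1 ratio 0.74, the latter within its wide interval. Partner ratios that moved were 0.29 for Pold1 in HSC/MPP-like and 0.40 for Pold4 in mast and basophil-like female cells, and -0.08 for Pold3 in HSC/MPP-like cells with cell-cycle genes kept. The count of list genes beyond the threshold was 0 under each alternative run.

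The share of cells with a Pold2 UMI was 50.3% and 33.2% in knockout and control at 9258 UMIs a cell, and 87.8% and 74.8% without thinning. The variance over the mean of Pold2 in the knockout was 1.08 at 9258 UMIs, 0.77 on counts scaled to a fixed total, 1.09 in erythroid-like cells, 1.20 in male cells and 1.22 at the median depth. In the control it was 1.06 at 9258 UMIs, 0.81 on scaled counts, 1.07 in female cells, 1.08 in male cells and 1.26 at the median depth. The Poisson value of 1 does not hold for scaled counts, so those values cannot be set against it. The median depth was also chosen after seeing the data.

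No paired analysis was possible because each genotype has 1 library, which also leaves no replicate to leave out. No class of the name Tox Ebf1 arose under other clusterings, nor did the granulocytic-like class with cell-cycle genes kept. Depth limits the smaller classes most: in female cells of the mast and basophil-like class the Pold2 interval spans -0.33 to 0.69.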
